A study of Danio rerio with 12 samples.

Results

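Gill transcripts of adult zebrafish (Danio rerio) kept for 96 h in water with copper oxide nanoparticles were compared with those of fish kept for 96 h with nickel oxide nanoparticles. The comparison rests on 6 of the study's 12 arrays: 3 from fish in 0.2 mg/L CuO and 3 from fish in 17.5 mg/L NiO, chosen by their sample titles. Each array held 1 pool of gills from 10 fish, which were not fed during the exposure, and neither strain nor sex is given by the labels. The other 6 arrays (3 untreated pools and 3 pools in 4.8 mg/L ZnO, also 96 h) took no part in the test and are quoted only as levels. Per the labels, the doses were the same fraction of each particle's own median lethal concentration. They therefore differ in mass, and the metal and its dose cannot be told apart.

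Copper is an essential metal of enzymes of respiration and of superoxide removal. Cells take it up through the transporter slc31a1, pass it on by chaperones such as atox1, export it through ATPases such as atp7a, and bind the excess in metallothioneins such as mt2. Nickel has no known essential role in fish. In mammalian cells its ions are known to stabilise hypoxia-inducible factor, which raises transcripts of glycolysis and of stress regulators such as ddit4. The gill is the fish's surface for gas exchange, ion uptake and waste excretion, and it holds epithelial cells, ionocytes, mucous cells, pillar cells, blood and a resident population of lymphocytes.

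With 3 arrays a group, limma called 0 of 12361 genes (0%) higher in CuO and 0 (0%) higher in NiO at an adjusted p of 0.05. The lowest adjusted p was 0.0908. Without NiO 1, 4 genes were called higher in CuO, and with array weights 25 were called higher in CuO and 6 higher in NiO. At an unadjusted p under 0.05 there were 856 genes (6.93%), of which 562 (4.55%) were higher in CuO and 294 (2.38%) higher in NiO. All genes described below are therefore given as values that did not pass the test. The 3 CuO arrays lay wholly above the 3 NiO arrays for 914 genes (7.39%) and wholly below them for 707 (5.72%). Some genes can separate fully in any split of 3 against 3 arrays, so these shares do not by themselves measure an effect of exposure. A mean difference of at least 2-fold was found for 976 genes (7.9%) higher in CuO and 588 (4.76%) higher in NiO, of at least 4-fold for 237 (1.92%) and 112 (0.906%), and of at least 8-fold for 61 (0.493%) and 30 (0.243%). The 95% interval of a gene's difference reached a median of 1.06 to either side on the log2 scale. It lay inside a 2-fold difference both ways for 2624 genes (21.2%), so for most genes a 2-fold difference was not excluded. The plot of differences against p shows more points on the CuO side at large differences.

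**Figure D1:**
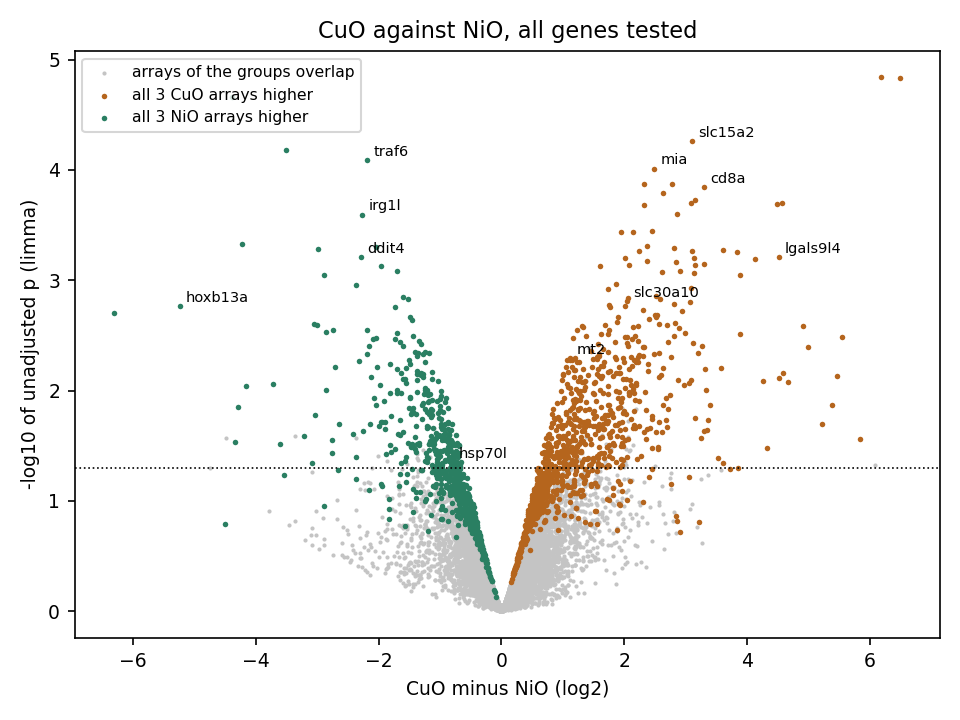
The log2 difference between the mean CuO and mean NiO level (x axis) is plotted against -log10 of the unadjusted limma p (y axis) for 12361 genes. Coloured points are the 914 genes higher on all 3 CuO arrays and the 707 higher on all 3 NiO arrays, and the dotted line marks an unadjusted p of 0.05.

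Arrays within a group were not equally alike, and 3 of the 6 differed in transcripts of other tissues. A level is given throughout as the log2 processed signal after subtraction of the array's 75th percentile. For 101 genes of the lens and retina the median level was -4.52 on CuO 3 and -4.28 on NiO 2, against 1.94, 1.92, 1.73 and 1.70 on CuO 1, CuO 2, NiO 1 and NiO 3. The median of 12 pituitary hormone genes was low on the same arrays (-5.85 and -5.57, against -1.57 to -0.48). The median of 55 oocyte and germ cell genes was 2.28 on NiO 1 and -4.49 to -3.30 on the other 5, and 3.24 to 3.65 on the untreated arrays. All untreated levels given below come from these pools, and the part of oocyte RNA in them was not tested. Across genes CuO 3 correlated with NiO 2 at r = 0.896 and with CuO 1 at r = 0.857, and NiO 2 correlated with NiO 1 at r = 0.818. These are descriptions across genes, which are not independent replicates. The 2 groups accounted for 19.2% of the variance among the 6 arrays. Any split of 6 arrays into 2 groups takes up part of the variance, so this share does not measure an effect of exposure. In the deposited series table only 2 of 12 columns hold the values of the scanner file deposited for the sample they name. The table's columns are named in order of group but hold the arrays in order of slide and of position on the slide. The scanner files of each sample were used. By them the 3 untreated arrays correlated with each other at r = 0.911 to 0.925, and by the table's names at 0.745 to 0.792. For CuO these ranges were 0.857 to 0.966 and 0.846 to 0.925, and for NiO 0.818 to 0.928 and 0.858 to 0.956. Which assignment is right was not tested. By the table's column names, 79 of the 141 genes followed had the opposite direction, among them zap70, traf6 and mia.

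Markers of gill epithelium were present on all 6 arrays. The keratin krt4 lay at 4.68, 4.64 and 4.41 in CuO and at 4.83, 5.21 and 5.08 in NiO, and the epithelial cadherin cdh1 lay between 2.88 and 3.41 on all 6. Ionocyte markers were uneven. The gene ca15a lay at 1.06, 1.35 and -5.52 in CuO and at -1.44, -6.50 and 0.27 in NiO. Like it, foxi3a, foxi3b, trpv6 and atp6v1aa were lowest of their group on CuO 3 and on NiO 2. In contrast, atp1a1a.1 and slc9a3.2 were highest of the NiO arrays on NiO 2. Skeletal muscle (62 genes, median level 2.46 to 3.69) and liver and plasma protein transcripts (55 genes, 1.46 to 3.96) were also high on every array. Over all 46 lists, the array medians did not overlap for 7. Of these, the lymphocyte, immune receptor, pancreas and intestine and acute inflammation lists were higher in CuO. The heat shock, immediate early and mitochondrial ribosomal protein lists were higher in NiO. Of all 12361 genes tested, 1621 (13.1%) did not overlap either way, so the count of 7 does not itself show an effect of exposure. In such bulk samples a larger share of cells of one type and more RNA per cell cannot be told apart.

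**Figure D2:**
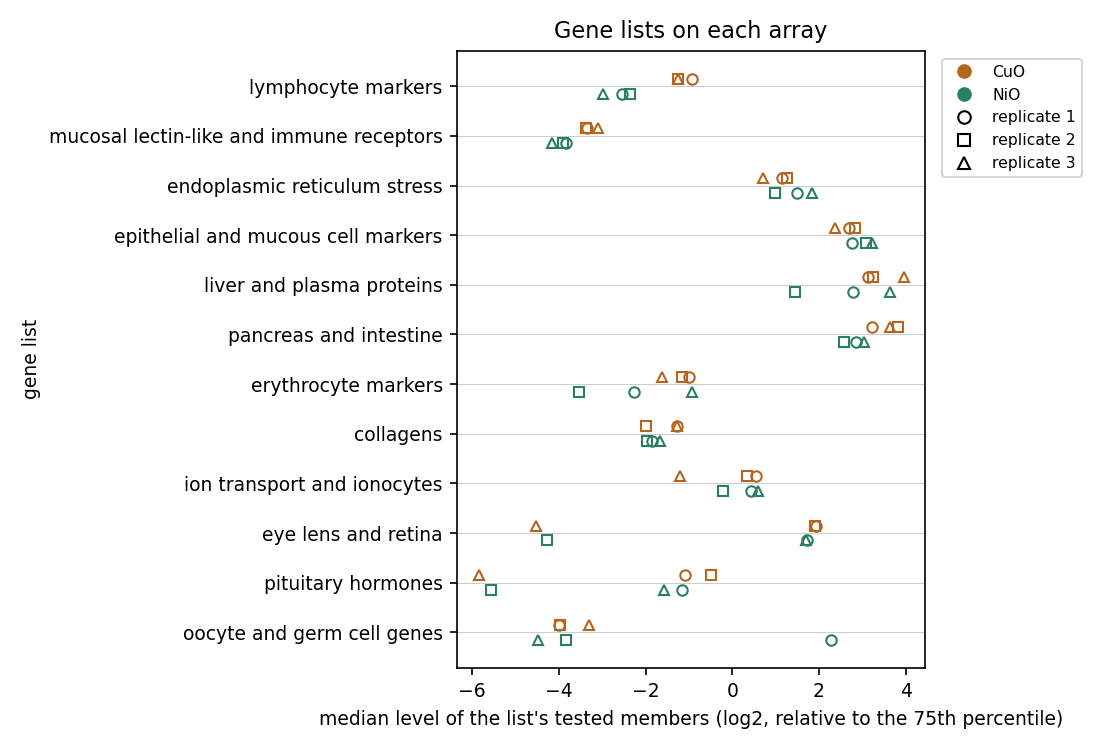
Each symbol is the median level of a gene list's tested members on 1 array (x axis, log2 relative to the array's 75th percentile; rows are lists; symbol shapes are replicate numbers). The eye and pituitary lists are low on CuO 3 and NiO 2, the oocyte list is high on NiO 1, and of the lists drawn the lymphocyte, immune receptor and pancreas and intestine lists have no overlap between CuO and NiO.

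Lymphocyte markers had higher levels on the CuO arrays, though none passed the test. Of 16 lymphocyte markers tested, 0 were called. On all 3 CuO arrays 8 lay higher than on any NiO array (50.0%, against 7.39% of all genes) and 1 lower (6.25%, against 5.72%). Of the 8 higher in CuO, 7 were well above background on all 6 arrays. The median difference of the 16 was 1.26, against 0.03 over all genes. The list's median level was -0.92, -1.26 and -1.24 on the CuO arrays and -2.54, -2.36 and -2.99 on the NiO arrays, with no overlap. On the untreated arrays it was -2.77 to -2.56, so the NiO arrays lay near the untreated level and the CuO arrays above it. These groups were not tested against each other here, and the untreated pools also differed in oocyte transcripts, as given above. On the ZnO arrays the lymphocyte list's median level was -1.42, -2.51 and -2.46. Without CuO 3 and NiO 2 the median difference was 0.98, and over the fits that leave out 1 array it ran from 1.15 to 1.35.

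The T cell co-receptor cd8a lay at -2.15, -2.44 and -3.19 in CuO and at -5.42, -6.28 and -5.98 in NiO. The groups did not overlap, and the fit gave an adjusted p of 0.161. On 2 of 3 NiO arrays it was well above background. It entered the test through CuO, so no fold is given. The kinase zap70, which relays T cell receptor signals, lay at -0.69, -0.83 and -0.40 in CuO and at -2.29, -2.22 and -2.21 in NiO, a difference of 1.60 ± 0.26 (SE; adjusted p = 0.220). Its arrays were tight within both groups and did not overlap. The helper T cell co-receptor cd4-1 lay at -0.86, -1.19 and -1.20 against -2.53, -2.83 and -1.84. The kinases lck and itk, both of the T cell receptor pathway, differed by 1.72 and 1.29, the homing receptor ccr7 by 2.71, the interleukin-7 receptor il7r by 1.74 and the lysin nkl.4 by 2.14. The exception was the chemokine receptor cxcr4a, whose NiO arrays (mean 1.36 ± 0.35, SD) all lay above the CuO arrays (mean 0.34 ± 0.87, SD), with a difference of -0.53 without CuO 3. These members were singled out after their values were seen.

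Of 26 mucosal lectin-like and immune receptor genes tested, 0 were called, 7 lay higher on all 3 CuO arrays (26.9%, against 7.39% of all genes) and 0 on all 3 NiO arrays (against 5.72%), with a median difference of 0.44. Of these 7, 5 were well above background on all 6 arrays. The list's median difference ran from 0.35 (without CuO 3) to 0.70 (without NiO 2) over the fits that leave out 1 array. The receptor nitr2a, from a family of fish receptors of natural killer-like cells, lay at -4.26, -3.87 and -3.46 in CuO and at -5.75, -5.57 and -4.92 in NiO. Its relative nitr4a differed by 1.76, the toll-like receptor tlr21 by 1.25 and the lectin-like receptor illr1 by 1.44 (0.94 without NiO 1). Of 23 antigen presentation genes, 6 lay higher on all CuO arrays (26.1%) and 2 on all NiO arrays (8.70%). Over all genes these shares were 7.39% and 5.72%. The list's median difference was 0.30 (0.17 without NiO 1). Its median level by array overlapped, at 0.10, 0.79 and 1.26 in CuO and -1.04, 1.64 and 1.35 in NiO. Among the genes of this list the invariant chain genes cd74a and cd74b differed by 0.59 and 0.56 and the class I light chain b2m by 0.38. Members of such receptor families resemble each other closely, so signal shared between them is possible and single members are uncertain. Of 25 neutrophil and macrophage markers, 1 lay higher on all CuO arrays (4%) and 3 on all NiO arrays (12%), against 7.39% and 5.72% of all genes. Their median difference of -0.22 was -0.09 without CuO 3, -0.06 without NiO 2, -0.44 without NiO 1 and 0.01 without CuO 3 and NiO 2.

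The 12 genes higher in CuO that the naming rule gave are described next, as values that did not pass. The rule kept genes without overlap between groups that at least 2 arrays of both groups showed well above background. It passed over symbols that only number a clone, and took the lowest unadjusted p of the rest. The cytokine il17a/f3 lay at -2.77, -3.36 and -3.46 in CuO and at -5.20, -5.87 and -5.23 in NiO, a 4.71-fold difference. Its untreated level was -5.18 ± 0.35 (SD, n = 3) and its ZnO level -4.81 ± 0.86 (SD, n = 3), so the CuO arrays stood above the other 3 groups' means. The signalling adaptor tyrobp, used by receptors of natural killer and myeloid cells, lay at -1.96, -1.75 and -2.06 against -4.07, -3.95 and -3.57. The phospholipase plcg2, which acts below immune receptors, lay at 2.54, 1.61 and 1.99 against 0.11, -0.26 and 0.06. The galectin-like gene lgals9l4 had the largest difference of the 12, with 1.44, -0.91 and -0.06 in CuO and -3.63, -5.25 and -4.20 in NiO, or 22.9-fold (adjusted p = 0.220).

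The peptide transporter slc15a2 lay between 1.27 and 1.66 in CuO and at -1.27, -1.72 and -2.07 in NiO, an 8.57-fold difference (95% interval 2.33 to 3.87 on the log2 scale, n = 3 against 3; adjusted p = 0.161). Untreated arrays lay between them, at -0.28 to 0.81. The secreted cartilage protein gene mia lay at 1.00, 1.04 and 1.18 against -1.23, -1.77 and -1.25, with untreated arrays at -2.51 to -0.18. The cytochrome P450 gene cyp2u1 differed by 2.77, the acyl-CoA thioesterase acot22 by 3.60, the D-amino acid oxidase dao.1 by 2.85 and the aminopeptidase lnpep by 2.37 (1.19 with the mean of its probes). The gene enpp2, which encodes the lysophospholipid-producing enzyme autotaxin, lay at -1.90, -2.16 and -1.75 against -5.07, -7.10 and -5.14, and NiO 2 was not well above background for it. None of these 12 genes overlapped between the groups, as the rule that chose them required.

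The 12 genes higher in NiO that the same conditions gave, by lowest unadjusted p, did not pass the test either. The stress gene ddit4, whose product restrains mTORC1 and which is a known target of hypoxia-inducible factor, lay at -0.70, -0.43 and 0.01 in CuO and at 1.53, 1.78 and 2.42 in NiO. The difference was -2.29 ± 0.36 (SE, n = 3 against 3; adjusted p = 0.220). Its untreated level was 1.71 ± 0.90 (SD, n = 3) and its ZnO level 1.71 ± 1.34 (SD, n = 3), so it was the CuO arrays that lay apart from the other groups' means. The adaptor traf6, a ubiquitin ligase of toll-like and interleukin-1 receptor signalling, lay at -4.97, -5.03 and -5.08 against -2.87, -2.79 and -2.85. Both groups were tight on the brightest probe, and the untreated arrays were higher than either (-2.23 to -1.38). With the mean of its probes the traf6 difference was -1.07 (adjusted p = 0.538), against -2.19. The F-box gene fbxo30a, of a ubiquitin ligase complex, differed by -2.89 and the ligase relative arih1l by -1.60.

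Of the remaining 8 of these genes, irg1l, a relative of the gene for the itaconate-forming enzyme, lay at -1.81, -1.12 and -1.59 in CuO and at 0.69, 0.98 and 0.61 in NiO. Its untreated arrays spanned -3.67 to 2.81, wider than that gap. The gene agr1, of the anterior gradient family of protein disulphide isomerases, lay at 1.45, 2.19 and 0.92 against 3.97, 4.18 and 3.50. The fucose synthesis enzyme gmds lay at 0.82, 1.13 and 0.88 against 2.82, 2.16 and 2.32. The homeobox gene hoxb13a had the largest difference of the 12 (37.8-fold) and a wide spread, at -6.43, -6.40 and -3.25 against -1.25, 0.77 and 0.13. The transcription factor foxk1 differed by -2.04, the nucleoside transporter slc29a1a by -1.96 (-1.04 with the mean of its probes), the mitochondrial rRNA methyltransferase mrm3b by -1.70 (-1.13) and the kinase pdpk1a, which activates Akt, by -1.73.

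**Figure D3:**
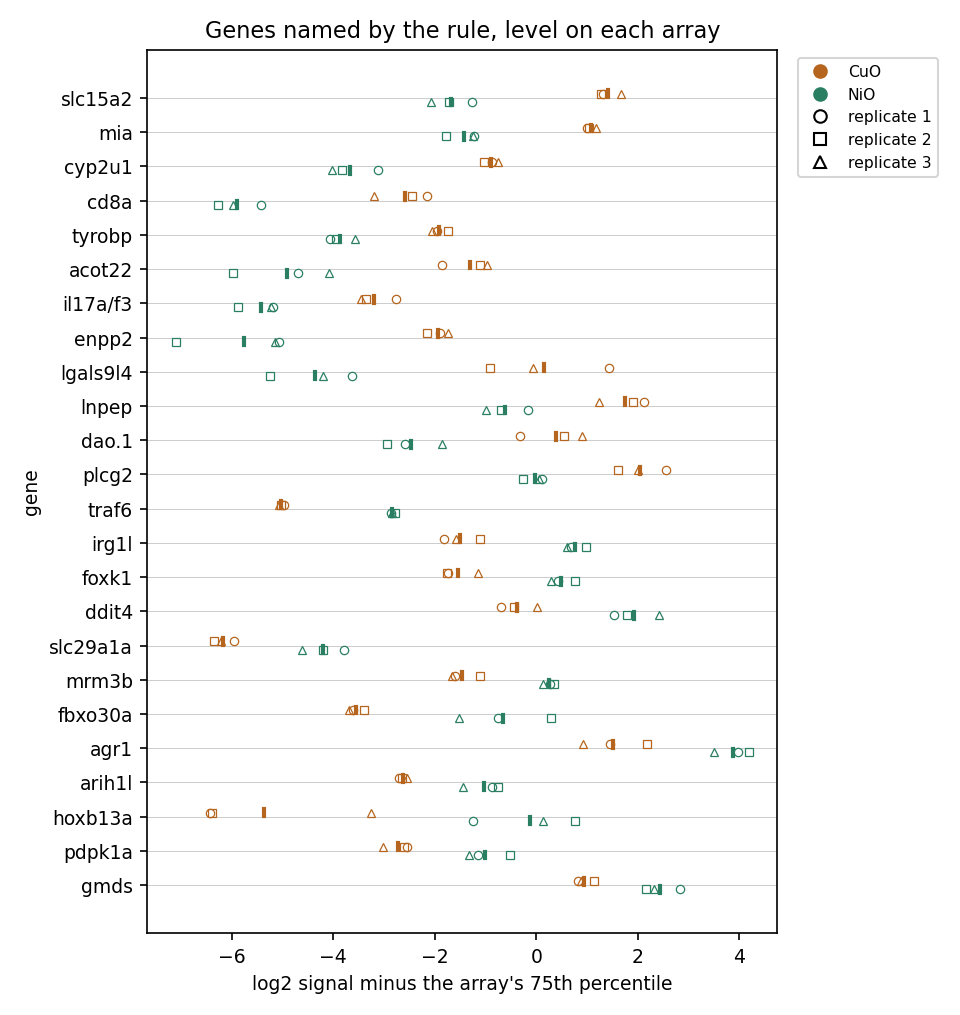
Levels of the 24 genes named by the rule on each CuO and NiO array (x axis, log2 relative to the array's 75th percentile; bars are group means, symbol shapes are replicate numbers). The upper 12 lie higher on every CuO array and the lower 12 on every NiO array, and none passed the adjusted test.

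For 34 genes 1 group had no array well above background, 28 of them bright in CuO and 6 bright in NiO. Detection differed between arrays. Spots well above background made up 84.9%, 86.3% and 88.3% on CuO 1 to 3 and 85.7%, 83.5% and 77.9% on NiO 1 to 3. The part of this in the split of 28 and 6 was not tested. For 33 of them the difference has a lower bound, and for rap1gap2b, whose CuO mean lay below the floor, it has none. For each dim array the floor was its lowest signal flagged well above background, or the probe's own signal where that was greater, and the bright group's mean was set against the mean of these floors. Such genes entered the test through the bright group alone. Their adjusted p comes from the fit of the measured signals, including dim ones not well above background, and not from the bound. The Golgi mannosidase man2a1 was at least 49.4-fold higher in CuO and the sulfotransferase sult3st5 at least 24.3-fold, both with an adjusted p of 0.0908. Leaving out NiO 1 made sult3st5 a called gene, in a fit with the same limit. The growth factor fgf19 was at least 12.2-fold higher in CuO (adjusted p = 0.161). The RNA-binding gene larp6b was at least 20.5-fold higher in NiO (adjusted p = 0.361). On the untreated arrays larp6b lay at 0.80 to 1.18, well above either exposure, and it lay at -1.38 and -1.07 on NiO 1 and NiO 2 but at -5.60 on NiO 3. These 4 were chosen after their values were seen.

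Genes of metal handling were looked at next, since the 2 metals differ. Of 18 metallothionein and zinc transport genes, 0 were called, 3 lay higher on all CuO arrays and 2 on all NiO arrays, with a median difference of 0.21 (0.10 without NiO 1). These shares, 16.7% and 11.1%, stand beside 7.39% and 5.72% of all genes. The metallothionein mt2 lay at 4.82, 5.26 and 5.13 in CuO and at 3.97, 4.02 and 3.86 in NiO. The difference was 1.12 (95% interval 0.48 to 1.76, n = 3 against 3; adjusted p = 0.410), a 2.17-fold higher level in CuO with no overlap. Untreated arrays lay in between, at 4.33 to 4.76, and the ZnO mean was 3.65 ± 0.47 (SD, n = 3). On the 3 slides, each of which held 1 array of both groups, the mt2 difference was 0.85, 1.24 and 1.27. With the mean of its probes the mt2 difference over the 6 arrays was 0.81, against 1.12 on the brightest probe.

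The exporter slc30a10, which carries manganese in mammals, lay at 1.93, 2.37 and 1.87 in CuO and at 0.47, -0.64 and 0.21 in NiO, a difference of 2.04 ± 0.38 (SE; adjusted p = 0.328). The zinc exporter slc30a1a differed by 0.68 with overlapping arrays. On their brightest probes the zinc importers went apart: slc39a1 lay higher on all CuO arrays (0.74) and slc39a3 higher on all NiO arrays (-0.74). With the mean of its probes the slc39a1 difference was much smaller, as given below. The regulator of metallothionein genes, mtf1, differed by 0.20 with overlapping arrays.

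Of 19 copper handling genes, which share mt2 with the list above, 0 were called and the median difference was 0.00. Of these genes, 3 lay higher on all CuO arrays (15.8%, against 7.39% of all genes) and 1 on all NiO arrays (5.26%, against 5.72%). The copper importer slc31a1 lay at 2.32, 2.60 and 2.41 in CuO and at 1.49, 0.79 and 2.06 in NiO, a difference of 1.00 (95% interval 0.07 to 1.93; adjusted p = 0.674). The superoxide dismutase sod1, a copper and zinc enzyme, differed by 0.34 and its arrays did not overlap. The chaperone atox1 (-0.67) and the exporter atp7a (-1.67) had lower means in CuO with overlapping arrays. For atp7a the interval ran from -3.58 to 0.25, and the difference was -0.95 without NiO 2. On 1 CuO array atp7a was not well above background, so it entered the test through NiO. The gene lias, for the lipoic acid synthase, lay higher on all NiO arrays (-0.83). Of 21 iron handling genes tested, 3 lay higher on all CuO arrays (14.3%, against 7.39% of all genes) and 0 on all NiO arrays (0%, against 5.72%). Among them the haem oxygenase hmox1b lay at 2.90 to 3.44 in CuO against 1.52 to 2.27 in NiO. Its paralogue hmox1a overlapped (0.55), as did the iron and manganese importer slc11a2 (-0.11). The transferrin receptor tfr1a (1.52) did not overlap, but its CuO mean rested on CuO 3, at -1.54 against -4.33 and -4.77 on CuO 1 and CuO 2, and it was 0.51 without that array.

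**Figure D4:**
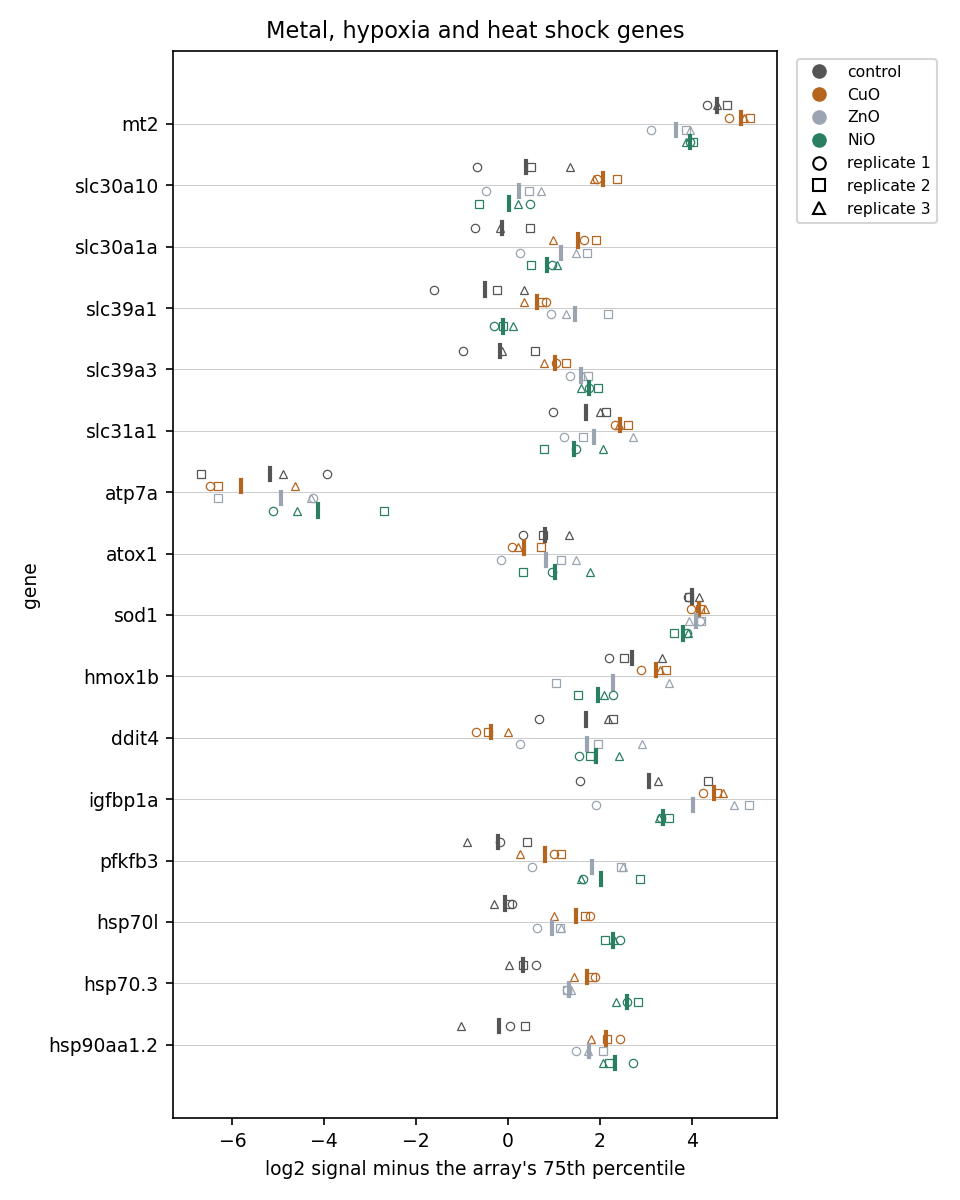
Levels of 16 genes of metal handling, hypoxia and heat shock on all 12 arrays (x axis, log2 relative to the array's 75th percentile; bars are group means, symbol shapes are replicate numbers). For mt2 the control arrays lie between CuO and NiO, and for ddit4 the CuO arrays lie below the other groups' means.

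Targets of hypoxia-inducible factor showed no common direction. Of 36 tested, 0 were called, 3 lay higher on all CuO arrays (8.33%, against 7.39% of all genes) and 4 on all NiO arrays (11.1%, against 5.72%). The median difference was -0.03 (-0.25 without NiO 1 and 0.19 without NiO 2). Besides ddit4, the glycolytic regulator pfkfb3 lay higher on all NiO arrays, between 0.25 and 1.15 in CuO and at 1.63, 2.87 and 1.58 in NiO (difference -1.22, adjusted p = 0.675, and -0.80 without NiO 2). In the other direction the growth factor binding protein igfbp1a lay at 4.24, 4.56 and 4.67 against 3.32, 3.50 and 3.28 (difference 1.12, adjusted p = 0.410). The prolyl hydroxylase egln3 (-0.28), the vascular growth factor vegfaa (0.00) and the stress gene ndrg1a (0.03) overlapped. For ndrg1a the interval was narrow, from -0.57 to 0.63, and its mean level was 4.20 ± 0.12 (SD) in CuO and 4.16 ± 0.07 (SD) in NiO. Of 28 glycolysis genes, 1 lay higher on all CuO arrays (3.57%, against 7.39% of all genes) and 0 on all NiO arrays (0%, against 5.72%). Their median difference was 0.03.

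Of 38 endoplasmic reticulum stress genes, 0 were called, 11 lay higher on all NiO arrays (28.9%, against 5.72% of all genes), 0 on all CuO arrays, and 35 had the higher mean in NiO. The median difference was -0.36 (0.03 over all genes), -0.40 without CuO 3 and NiO 2, and -0.56 to -0.22 over the fits that leave out 1 array. The list's median level by array overlapped, however, at 1.15, 1.26 and 0.70 in CuO and 1.49, 0.99 and 1.83 in NiO. The phosphatase subunit ppp1r15a, which reverses the translation block of the stress response, lay at 1.03, 0.77 and 0.05 against 1.51, 2.47 and 1.76 (2.46-fold, adjusted p = 0.556). The glutathione-degrading enzyme chac1 lay at 2.24, 1.99 and 2.72 against 2.90, 4.09 and 3.27. The secreted chaperone-like factor manf differed by -1.13, the endoplasmic reticulum protein sdf2l1 by -0.85, the chaperone hyou1 by -0.72, the stress sensor sesn2 by -0.97 (-0.59 without NiO 2), the pseudokinase trib3 by -0.79 (-0.47 without CuO 3), the asparagine synthetase asns by -0.69 and the transcription factor atf3 by -0.60. For manf the untreated mean (2.16) was higher than in either exposure.

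Of 52 heat shock genes tested, 0 were called, 2 lay higher on all CuO arrays (3.85%) and 6 on all NiO arrays (12%). Over all genes these shares were 7.39% and 5.72%. The list's median difference of -0.23 was -0.07 without CuO 3 and NiO 2. The list's median level did not overlap, at -0.08, -0.15 and -0.19 in CuO and 0.17, 0.75 and 0.27 in NiO. The inducible chaperone hsp70l had a mean of 1.49 ± 0.42 (SD) in CuO and lay at 2.43, 2.11 and 2.31 in NiO, with no overlap, and at -0.30 to 0.08 on the untreated arrays. Its difference was -0.79 (95% interval -1.56 to -0.03; adjusted p = 0.701). Its relative hsp70.3 differed by -0.87 on the brightest probe, and by less with the mean of its probes, as given below. The co-chaperone dnajb6a differed by -1.03. The other inducible chaperones, hsp90aa1.1 (0.10) and hsp90aa1.2 (-0.20), overlapped, whereas the constitutive hsp90ab1 lay 0.38 higher in CuO and the Hsp90 activator ahsa1a 1.12 higher. Of 55 proteasome genes, 3 lay higher on all CuO arrays (5.45%) and 7 on all NiO arrays (12.7%), against 7.39% and 5.72% of all genes. Their median difference was -0.23 (-0.09 without NiO 2, -0.07 without CuO 3 and NiO 2). Among them psmb11b, for a catalytic subunit known in mammals from the thymus, lay 2.02-fold higher in CuO.

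Antioxidant genes did not lean to one side. Of 49 tested, 0 were called, 6 lay higher on all CuO arrays (12.2%, against 7.39% of all genes) and 3 on all NiO arrays (6.12%, against 5.72%). The median difference was 0.09. The glutathione transferases went in different directions: gsto1 (1.95, and 1.17 without NiO 2) and the microsomal mgst3a (1.03) lay higher on all CuO arrays, and mgst2 (-0.77) higher on all NiO arrays. The Nrf2 targets gclm (-0.59), gstp1.1 (-0.54) and nqo1 (-0.13) overlapped, and the NiO 3 array was the highest of the 6 for all 3 of them. The cytochrome P450 gene cyp1a (0.49), the interferon-induced isg15 (-0.19), the cytokine il1b (-1.04) and the calcium hormone stc1 (0.17) overlapped too. The il1b value rested on NiO 2, at -0.18 against -2.87 and -3.24 on NiO 1 and NiO 3, and was -0.08 without that array. For stc1 both groups lay above the untreated arrays, at -1.75 to -0.41 and -1.40 to -0.79 against -3.62 to -3.04.

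Of 51 epithelial and mucous cell markers, 0 were called, 11 lay higher on all NiO arrays (21.6%, against 5.72% of all genes) and 2 on all CuO arrays (3.92%, against 7.39%). The median difference was -0.16, -0.06 without CuO 3 and -0.02 without CuO 3 and NiO 2. The annexin A1 genes, whose mammalian relative limits inflammation, were among them, with anxa1c at 3.29, 3.47 and 2.52 in CuO against 4.36, 3.94 and 4.53 in NiO, anxa1d with a difference of -1.19 and anxa1b with -1.07. The close resemblance of anxa1c and anxa1d leaves shared signal possible. The cornified envelope genes scel (-0.91) and ppl (-0.81) and the keratins krt17 (-0.72) and krt4 (-0.46) did not overlap either, while the basal keratin krt5 differed by 0.02 with overlap. The keratin krt95 went the other way, at 2.56, 2.56 and 2.83 in CuO and -2.33, -7.93 and 0.70 in NiO. On NiO 2 it was not well above background. It entered the test through CuO, so no difference is given.

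**Figure D5:**
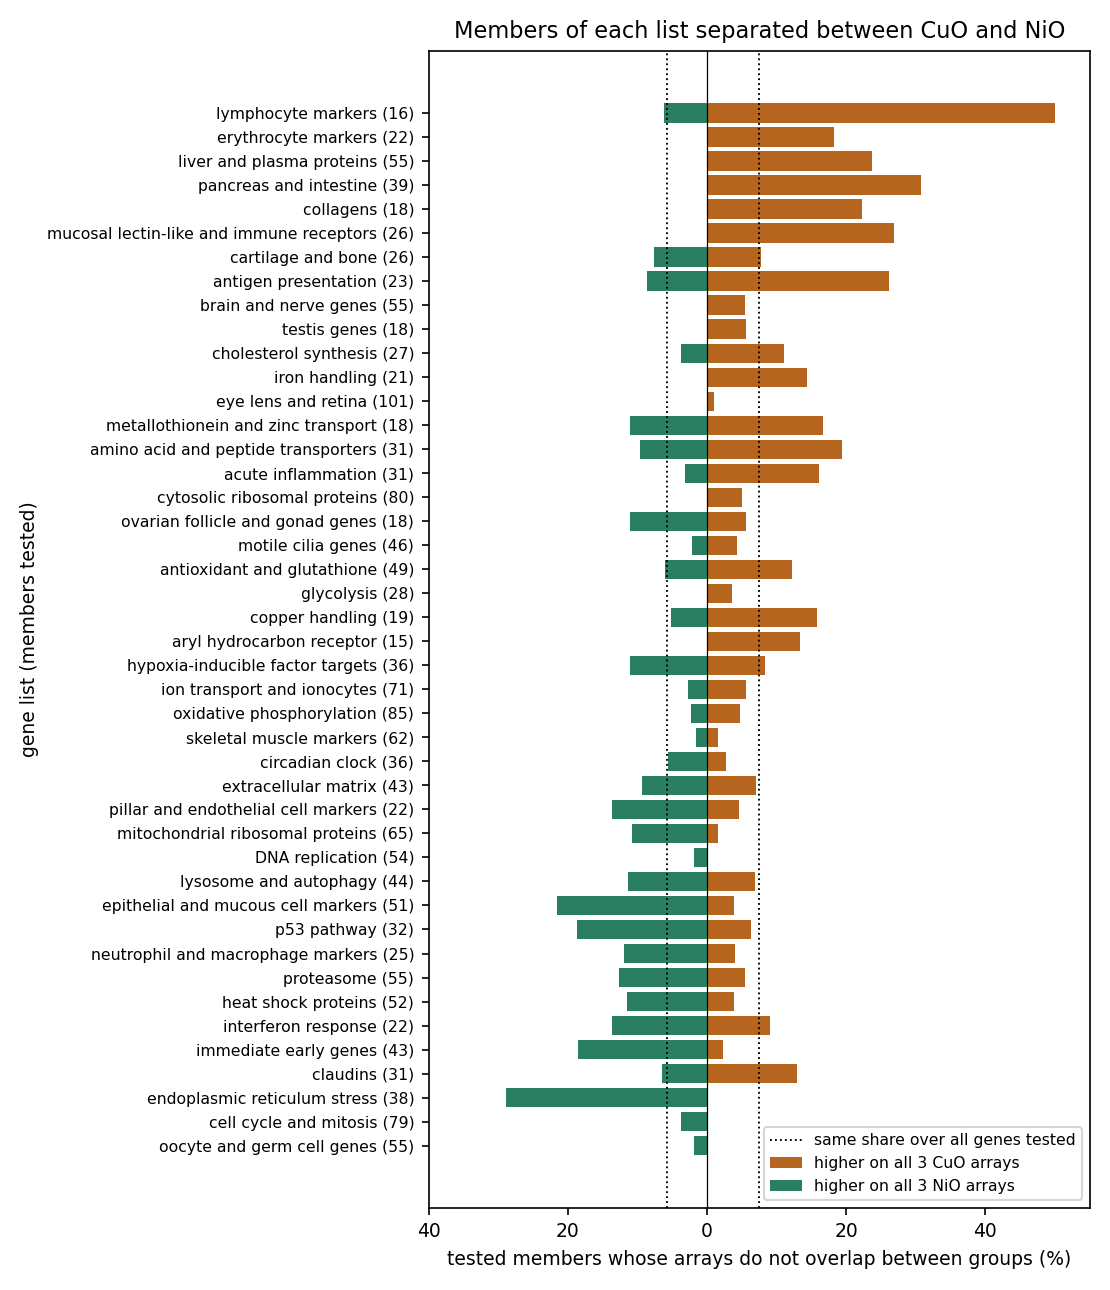
For each gene list with at least 15 members tested, bars give the percentage of members higher on all 3 CuO arrays (right) or on all 3 NiO arrays (left). Dotted lines mark the same shares over all genes tested, 7.39% and 5.72%. Lymphocyte markers reach 50.0% on the CuO side and endoplasmic reticulum stress genes 28.9% on the NiO side.

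The ion transport list holds ionocyte genes and genes of other cells too, such as rhag and aqp1a.1, also listed as erythrocyte and endothelial markers. Of its 71 tested genes, 0 were called and 4 lay higher on all CuO arrays (5.63%, against 7.39% of all genes). On all NiO arrays 2 lay higher (2.82%, against 5.72%). The median difference was -0.03 (0.24 without CuO 3). The sodium pump subunit gene atp1a1a.4 lay at 4.12, 4.23 and 4.37 in CuO and 3.27, 3.40 and 3.96 in NiO, and the pump subunit atp1b3a (1.21) and the water channel aqp1a.1 (1.18) lay higher in CuO too. The kinase sgk2b, related to a regulator of ion channels, lay at -1.22, -0.80 and -0.23 against 0.44, 2.31 and 1.39.

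Immediate early genes, which respond within minutes to signals and handling, gave 8 members of 43 higher on all NiO arrays (18.6%, against 5.72% of all genes) and 1 on all CuO arrays (2.33%, against 7.39%), and 0 called. Their median difference of -0.27 was -0.09 without CuO 3, -0.10 without NiO 2 and 0.03 without both. The antiproliferative gene btg2 lay at 0.89, 1.56 and 0.62 in CuO and at 2.05, 2.41 and 2.03 in NiO. The transcription factors junbb (-1.12), fosab (-1.04, and -0.69 without NiO 2) and cebpb (-0.94) and the phosphatase dusp1 (-0.76) shared that direction, and the growth factor signalling inhibitor spry2 (0.99) had the opposite one.

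Lists of digestive organs and plasma proteins had their higher median in CuO, and the liver list moved with the arrays that stood apart. Of 39 pancreas and intestine genes, 0 were called, 12 lay higher on all CuO arrays (30.8%, against 7.39% of all genes) and 0 on all NiO arrays (against 5.72%), with a median difference of 0.64 (0.41 without CuO 3, 0.47 without CuO 3 and NiO 2). The list's median level was 3.23, 3.83 and 3.65 in CuO and 2.85, 2.57 and 3.03 in NiO. The trypsinogen gene prss1 was among the brightest, at 5.80, 6.37 and 5.99 against 5.51, 5.58 and 5.76, and the intestinal bile acid binding protein fabp6 ranged from 3.52 to 4.11 in CuO and from -3.03 to 2.21 in NiO (difference 3.53, and 1.85 without NiO 2). The intestinal transcription factor cdx1b differed by 2.84-fold on its brightest probe, and by less with the mean of its probes, as given below. On the log2 scale the intestinal peptide transporter slc15a1b differed by 1.66 and the chitinase chia.2 by 1.49 (0.98 without NiO 2). Of 55 liver and plasma protein genes, 13 lay higher on all CuO arrays (23.6%, against 7.39% of all genes) and 0 on all NiO arrays. Their median difference of 0.82 was 0.29 without NiO 2, 1.27 without NiO 3 and 0.02 without CuO 3 and NiO 2. The list's level was lowest on NiO 2 (1.46) and highest on CuO 3 (3.96). The urate oxidase uox lay at 2.99, 3.02 and 4.12 against 0.81, 0.17 and 1.41, the mannose-binding lectin mbl2 differed by 2.39, the tyrosine aminotransferase tat by 2.09 and the apolipoprotein apoea by 0.77. The part of such tissues' RNA in the immune and epithelial differences was not tested.

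Oocyte transcripts set NiO 1 apart and not the groups. Of 55 such genes, 1 lay higher on all NiO arrays (1.82%, against 5.72% of all genes) and 0 on all CuO arrays (0%, against 7.39%). Their median difference of -1.59 became 0.09 without NiO 1. The egg coat gene zp3b lay at 3.36 on NiO 1 and between -3.17 and -2.38 on the other 5. The yolk precursor gene vtg7 lay at -4.72, -3.96 and -4.30 in CuO and at -3.60, -2.37 and -1.32 in NiO, against 2.52 to 4.17 on the untreated arrays. Eye genes set CuO 3 and NiO 2 apart in the same way: rhodopsin, rho, lay at -6.13 and -8.23 on those arrays and at 4.59 to 4.89 on the other 4, and the lens crystallin cryaa at -6.31 and -7.11 against 2.69 to 3.16.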

How the data were processed

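Gill RNA was labelled with cyanine 3 and hybridised to one-colour Agilent zebrafish arrays, per the labels' protocols, which also speak of a dye swap although each file holds 1 channel. Per the file headers, Feature Extraction 11.5.1.1 wrote the deposited processed intensity of each spot, with its background subtracted, and spot flags. The submitters' processing notes name MAS5, its version and role not given in the sources used here. A second deposited file, the series table, holds intensities on a linear scale with column medians of 146 to 584, neither centred nor scaled between arrays. Set against the scanner files by value, 10 of its 12 columns hold the array of another sample.

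Control and outlier spots were dropped, and spots of 1 probe averaged. Values are log2 processed signal minus the array's 75th percentile. On the 6 arrays 77.9% to 88.3% of spots were well above background and 0 were saturated, and the number of arrays limits the precision. Probes well above background on all 3 arrays of either group, with at least 2 values in both, were tested. Of 43603 probes, 26094 were named by RefSeq accession (GRCz12tu), and the brightest probe stood for its gene, which gave 12361 genes. No coordinates are given, since the array annotation uses another build.

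The 6 arrays were fitted with limma 3.58.1 in R 4.3.3 (moderated variances, Benjamini-Hochberg adjustment over all genes, threshold 0.05), after a test on simulated data. Each pool came from other fish, and the p-values rest on the spread among pools. Every slide held 1 array of each group, at a position that followed the group, so position and group cannot be told apart. Same-numbered arrays deviated from their group means with correlations of 0.30, -0.53 and -0.48, so numbers were not taken to pair the samples.

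The comparison, the 46 gene lists and the tests were chosen with earlier results of these data known, so lists are described by counts and medians. The rule for named genes asked for the largest called differences. With none called, it gave the 12 genes in each direction with the lowest unadjusted p among those whose groups did not overlap, that at least 2 arrays of both groups showed well above background, and whose symbol does not only number a clone. It added each list's member of lowest p and 30 metal and stress genes, of which 26 were tested. Other genes were named after their values were seen. The planned normexp correction used the median spot signal, since the files used here carry no mean.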

Additional observations from a re-analysis of the deposited data

How the results depend on the processing

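The planned fit called 0 genes, and 25 alternatives were run. Calls appeared in 4 of them. Array weights called 25 genes higher in CuO and 6 higher in NiO, and the eye list as a covariate called 12 and 3, of which 13 genes in all were called by both. Leaving out NiO 1 called 4 genes higher in CuO (ncalda, nuggc.2, serpina10a and sult3st5), so the count ran from 0 to 4 over the fits without 1 array, and 0 to 0 higher in NiO. The series table by its column names called 1 gene each way (stmn4 and ggact.2). These fits do not replace the planned one, and the cause of their calls was not tested. At an unadjusted p under 0.05 the planned fit had 856 genes, against 1507 with array weights, 1349 without CuO 3 and NiO 2, 1650 with the eye covariate, 468 in the series table, 2264 of 35577 probes when all probes were fitted, and 621 to 997 without 1 array. With the slide or the replicate number as a block, which are the same fit here, 0 genes were called and 611 passed the unadjusted threshold. Same-numbered arrays share a slide and a number, and by the check given above 1 of 3 pairs deviated together.

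Of the 141 genes followed, the direction turned for 14 in a fit of the scanner files and for 79 in the series table. Columns named CuO in that table hold NiO 1, control 2 and CuO 2, and columns named NiO hold CuO 3, ZnO 3 and NiO 3, so it compares other arrays under these names. The differences there, CuO minus NiO as named, were agr1 0.28, ahsa1a -0.26, alas2 -0.55, anxa1b 0.083, anxa1c 0.047, anxa1d 0.10, apoea -0.28, aqp1a.1 -1.05, arih1l 0.90, atp1a1a.4 -0.48, atp1b3a -0.0092, b2m -0.17, btg2 0.83, ccl19a.1 -0.75, cd4-1 -0.024, cdx1b -0.41, col1a1b -1.06, col1a2 -0.56, col2a1a -0.64, cxcr4a 0.13, cyp1a -0.46, dao.1 -0.64, dnajb6a 0.18, dusp1 0.13, enpp2 -0.65, fabp6 -0.44, fbxo30a 0.98, fgf19 -0.54, foxk1 0.0073, gclm 0.50, gsto1 -0.53, hbba1 -0.21, hmox1a -1.33, hmox1b -0.22, hsp90aa1.1 -0.42, hsp90ab1 -0.081, igfbp1a -0.21, il1b 0.26, il7r -0.25, illr1 -3.89, irg1l 1.07, junbb 0.13, krt5 -0.13, larp6b 3.33, lgals9l4 -0.12, lgals9l5 -0.98, man2a1 -1.44, manf 0.37, mgst3a -0.30, mhc2d8.35b2 -0.67, mia -0.49, mrm3b 0.55, mtf1 -0.58, ndrg1a -0.21, nitr2a -0.20, nkl.4 -0.66, pdpk1a 0.43, plcg2 -0.22, psmb11b -0.27, sdf2l1 0.14, sesn2 3.1e-05, slc15a1b -0.021, slc29a1a 1.47, slc30a1a -0.059, slc31a1 -0.32, slc38a4 -0.70, slc39a1 -0.51, sod1 -0.041, spry2 -0.39, stc1 -0.46, sult3st5 -0.79, tat -0.068, tfr1a -1.44, traf6 0.98, trib3 0.14, uox -0.97, vtg7 0.52, zap70 -0.50, zp3b 4.54. With array weights, the differences were cdh1 0.013, egln3 0.34, isg15 0.054. Without CuO 3 and NiO 2, the differences were cdh1 0.019, egln3 0.49. Centred on ribosomal protein genes, the differences were hsp90aa1.1 -0.033, krt5 -0.12, ndrg1a -0.10, vegfaa -0.13. With an oocyte covariate, the differences were hsp90aa1.1 -0.028, krt5 -0.11, ndrg1a -0.0093, vegfaa -0.089. After normexp, the differences were krt5 -0.070, ndrg1a -0.14. After quantile normalization, the differences were krt5 -0.032, ndrg1a -0.045, vegfaa -0.015. From the mean of probes, the differences were ndrg1a -0.070. With outlier spots kept, the differences were vegfaa -0.011. With an eye covariate, the differences were vegfaa -0.010. Over the fits without 1 array the range crossed 0 for cdh1 -0.18 to 0.088, cryaa -2.95 to 3.50, egln3 -0.68 to 0.29, hsp90aa1.1 -0.030 to 0.21, isg15 -0.80 to 0.46, krt5 -0.12 to 0.18, mtf1 -0.015 to 0.40, ndrg1a -0.038 to 0.081, nqo1 -0.35 to 0.090, rho -3.46 to 4.46, slc11a2 -0.39 to 0.18, stc1 -0.13 to 0.54, vegfaa -0.19 to 0.33, zp3b -3.15 to 0.11. All other values of the followed genes kept their direction. Of the list medians, 14 of 460 moved by more than the spread between arrays. Among them were the lymphocyte list (0.98 without CuO 3 and NiO 2), the immediate early list (0.03) and the p53 list (-0.0045). A list that rests on few arrays has a wide spread and can shift far without being counted. The oocyte list (-1.59, and 0.09 without NiO 1) and the eye list (0.22, and 2.11 without CuO 3) were not counted. The count of 14 therefore does not measure how stable the lists were. With the mean of a gene's probes in place of the brightest, the difference was 1.53 for alas2, 1.08 for atp1a1a.4, 0.61 for cdx1b, 0.21 for col2a1a, 0.10 for slc39a1, -0.49 for hsp70.3, -0.48 for krt17 and -0.58 for sesn2. The dimmest genes are limited by background, with 34 genes not well above it on any array of 1 group.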

Other observations

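Of 18 collagen genes tested, 0 were called, 4 lay higher on all CuO arrays (22.2%, against 7.39% of all genes) and 0 on all NiO arrays (0%, against 5.72%). In CuO 17 had the higher mean, with a median difference of 0.60 (0.03 over all genes). The fibrillar collagens col1a1b (2.77, 2.31 and 3.40 in CuO, 1.64, 2.11 and 2.12 in NiO) and col1a2 (difference 0.62) and the cartilage collagen col2a1a (0.82) were among the 4. With the mean of its probes the col2a1a difference was smaller, as given above. Of 22 erythrocyte markers, 4 lay higher on all CuO arrays (18.2%, against 7.39% of all genes) and 0 on all NiO arrays (0%, against 5.72%). Their median difference of 0.85 was 0.33 without NiO 2, on which the list's level was lowest (-3.55, against -2.28 and -0.92 on NiO 1 and NiO 3). The haem synthesis gene alas2 lay at 1.44, 1.70 and 1.48 in CuO and at 0.50, 0.62 and 1.17 in NiO, and the globin hbba1 at 4.74 to 4.82 against a mean of 3.75 ± 1.18 (SD) with no overlap, a difference of 1.03 that was 0.35 without NiO 2. The erythropoietin receptor gene epor was not well above background on any NiO array and was at least 1.27-fold higher in CuO. Its adjusted p of 0.382 comes from the fit of the measured signals and not from that bound.

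Of 31 amino acid and peptide transporters, 6 lay higher on all CuO arrays (19.4%, against 7.39% of all genes) and 3 on all NiO arrays (9.68%, against 5.72%). Besides slc15a2, the hepatic amino acid transporter slc38a4 lay 0.91 higher in CuO. The heavy chain of amino acid exchangers, slc3a2b, lay at 1.39, 1.65 and 1.46 in CuO and at 2.66, 3.34 and 2.57 in NiO, and the glutamine transporter slc1a5 at -4.91, -4.92 and -3.68 against -2.51, -0.02 and -3.04 (difference -2.65, and -1.73 without NiO 2). The chemokine gene ccl19a.1 lay at 0.48, 0.94 and 2.00 against -1.39, -0.58 and -0.21. Its list of 31 inflammation genes had 5 higher on all CuO arrays (16.1%, against 7.39% of all genes) and 1 on all NiO arrays (3.23%, against 5.72%). The class II gene mhc2d8.35b2 lay at -0.16, -1.33 and -0.96 in CuO and at -2.66 on NiO 3, the NiO array that was well above background for it. It entered the test through CuO, so no difference is given, and it belongs to a polymorphic family in which a probe can miss alleles. Of 65 mitochondrial ribosomal protein genes, 1 lay higher on all CuO arrays (1.54%, against 7.39% of all genes) and 7 on all NiO arrays (10.8%, against 5.72%). Their median difference was -0.13. Cytosolic ribosomal protein genes had a higher CuO mean in 68 of 80, with a median difference of 0.15. Centring each array on these genes instead moved the median of all genes from 0.03 to -0.11.

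The same fit for the other pairs of exposures also called 0 genes: CuO against ZnO had 1056 at an unadjusted p under 0.05 and ZnO against NiO had 405. These pairs share arrays with the comparison of CuO and NiO.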
